A study of Mus musculus with 8 samples.

Results

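Chromatin accessibility was examined at 9 genes of oxygen sensing and vascular growth in mouse gastrocnemius, a calf muscle. The genes were Hif1a, Epas1, Hif3a, Arnt, Egln1, Egln3, Vhl, Vegfa and Vegfb. Every region that the deposited table lists under one of these names was taken, which gave 214 of the 489637 regions in the table. Of the 214 regions, 97 carried enough signal to be tested. None of the 97 regions and none of the 9 summed signals differed between the groups once p-values were adjusted over all features (limma, Benjamini-Hochberg, threshold 0.05), where 0.0881% of all tested regions and 0.13% of all tested genes did.

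ATAC-seq uses a transposase that inserts sequencing adapters into open DNA, so the signal of a region measures how accessible its chromatin is, not how much RNA a gene makes. The 8 libraries came from muscle nuclei of mice 6 months old, and both groups had the genotype Cre+:iMSBmal1 fl/fl, so the vehicle animals also carried Cre and the floxed alleles of Bmal1, a core factor of the circadian clock. The vehicle group (4 libraries) had received vehicle, and the iMSBmal1KO group (4 libraries) tamoxifen, the drug that activates an inducible Cre. The knockout and the drug therefore cannot be told apart. The labels do not name the promoter that drives Cre, the floxed exon or the time of day of collection. They also do not say that the numbered samples are separate animals, so p-values measure the spread between these samples, which may be technical.

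Cells sense oxygen through hypoxia-inducible factors, which are pairs of an alpha subunit (Hif1a, Epas1, Hif3a) and the shared beta subunit Arnt. In oxygen, prolyl hydroxylases of the Egln family mark the alpha subunits, Vhl recognises the mark, and the alpha subunit is degraded. When oxygen falls the alpha subunit lasts, pairs with Arnt and binds short response elements near its targets, of which Vegfa, the main growth signal for capillaries, is the best known. Vegfb is a related ligand, linked to the heart and to oxidative muscle. Arnt and Bmal1 belong to the same family of basic helix-loop-helix PAS proteins, and Bmal1 with its partner Clock binds the E-box, CACGTG, whose letters include the core of the hypoxia response element.

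The promoter windows are shown because they show where both kinds of letters lie relative to the open regions. RefSeq (GRCm38.p6) windows of 300 bases, from 250 before to 50 after a transcript start, were found for 8 of the 9 genes, 9 windows in all with 2 for Vegfa, and 5 are printed. These motifs were searched on both strands: the E-box CACGTG, and the hypoxia core written as ACGTG or GCGTG. Each E-box also matches the core on both strands, so the searches overlap. In the sequences below the matches are in capitals and the rest is in lower case, 5′ to 3′ along the gene.
Hif1a, chr12:73907617-73907916, plus strand: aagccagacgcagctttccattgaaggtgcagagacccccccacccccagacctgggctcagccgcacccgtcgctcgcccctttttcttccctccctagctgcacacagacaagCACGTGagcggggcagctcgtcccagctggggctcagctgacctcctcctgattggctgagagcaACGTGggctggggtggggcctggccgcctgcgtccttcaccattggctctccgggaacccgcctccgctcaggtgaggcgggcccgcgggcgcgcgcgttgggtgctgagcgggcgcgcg
Arnt, chr3:95434140-95434439, plus strand: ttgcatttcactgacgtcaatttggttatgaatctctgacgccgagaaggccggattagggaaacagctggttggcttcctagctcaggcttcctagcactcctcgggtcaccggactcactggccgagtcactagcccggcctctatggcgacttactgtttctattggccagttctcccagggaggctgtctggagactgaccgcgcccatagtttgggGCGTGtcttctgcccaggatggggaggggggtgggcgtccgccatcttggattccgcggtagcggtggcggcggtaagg
Egln3, chr12:54203825-54204124, minus strand: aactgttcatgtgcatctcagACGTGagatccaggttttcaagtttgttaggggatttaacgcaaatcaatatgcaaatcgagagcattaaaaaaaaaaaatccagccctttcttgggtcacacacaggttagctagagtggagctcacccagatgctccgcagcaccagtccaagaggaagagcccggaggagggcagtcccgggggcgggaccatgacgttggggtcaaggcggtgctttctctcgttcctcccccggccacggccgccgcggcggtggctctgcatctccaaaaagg
Vegfa, chr17:46032328-46032627, minus strand: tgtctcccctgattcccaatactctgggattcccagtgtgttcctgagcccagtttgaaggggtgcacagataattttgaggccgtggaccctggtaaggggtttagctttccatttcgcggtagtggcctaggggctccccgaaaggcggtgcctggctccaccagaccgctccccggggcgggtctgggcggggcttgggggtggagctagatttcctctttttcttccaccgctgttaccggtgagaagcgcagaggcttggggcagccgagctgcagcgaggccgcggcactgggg
Hif3a, chr7:17062378-17062677, minus strand: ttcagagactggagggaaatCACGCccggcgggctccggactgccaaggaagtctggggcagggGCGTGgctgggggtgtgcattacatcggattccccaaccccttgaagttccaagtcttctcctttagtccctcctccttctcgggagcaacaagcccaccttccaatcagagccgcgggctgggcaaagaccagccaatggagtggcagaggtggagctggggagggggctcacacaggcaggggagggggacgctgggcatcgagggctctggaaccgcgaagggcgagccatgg
The single E-box among the member windows was in Hif1a, at positions 116 to 121 counted from 1 at the 5′ end of the window, against 7.15% of 32851 promoter windows that hold one. It lay inside the accessible start region of Hif1a, as did a second ACGTG at 181 to 185. Arnt held a GCGTG at 222 to 226, inside its start region. Egln3 held an ACGTG at 22 to 26, outside its start region and in a listed region too weak to be tested (3.55 ± 2.31 in vehicle, SD, n = 4). The Vegfa window printed here held neither motif, although it overlapped the strongest start region of the gene. The other Vegfa window, chr17:46025114-46025413, held 1 ACGTG and 1 GCGTG, and no listed region overlapped it. Hif3a held 2 copies of GCGTG, and no region of the table overlapped its window. In all, 7 of the 9 member windows held ACGTG or GCGTG, against 43.8% of all windows, and the member windows held 10 to 60 CpG against a median of 7. These matches describe letters, not bound sites.

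The libraries ranged in depth from 4.31 to 29.5 M read equivalents over all regions (M for mega), and vehicle replicate 4 was the shallowest. That library also stood apart from the rest, with 24.9% of regions at 0 and a mitochondrial share of 16.5% against 1.11% to 5.51% elsewhere. It was the lowest vehicle library in 7 of the 9 summed signals, and changes without it are given beside the sums, and beside the regions named by rule that moved by over 1.5 times. The targeted gene, listed as Arntl, had a summed signal of 2688, 2248, 2557 and 1942 in vehicle and 3023, 3421, 3154 and 3315 in iMSBmal1KO. All of its iMSBmal1KO values lay above all of its vehicle values, but the change of 0.46 ± 0.14 (log2, SE, n = 4 each) did not pass the threshold (limma adjusted p = 0.374), and accessibility of the gene does not test the deletion.

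The labelled tissue was checked against marker genes. The median start region of 9 of the 10 fast-fibre markers held 1684 signal per kb in vehicle (range 106 to 3163), while endothelial markers stood at 81.7 (11 of 12, up to 185) and macrophage markers at 37.3 (4 of 7, up to 129). In vehicle, markers of slow fibres stood at 109 (6 of 7), satellite cells at 86.6 (4 of 6), fibro-adipogenic cells at 135 (6 of 7) and mural cells at 203 (6 of 7). The fast myosin genes were low for the fast-fibre list, with means over all 8 libraries of 126 for Myh1 and 294 for Myh4. Vegfa acts on endothelial cells, and Epas1 is known as an endothelial factor, so the level of endothelial chromatin bears on both. In such bulk nuclei, fewer cells of a type and less signal per cell cannot be told apart. The summed signal of the 12 endothelial markers ranged from 5284 to 6509 in vehicle and from 5643 to 8035 in iMSBmal1KO. The highest sum included 4634 at Flt1 alone, in iMSBmal1KO replicate 3. The median change of the 12 genes was -0.08, against 0.11 over all genes, and none passed the threshold. None of the genes on the marker lists of fast and slow fibres, fibro-adipogenic cells, satellite cells, macrophages and mural cells passed it either. Their part in the results below was not tested.

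Because a longer region collects more reads, levels were compared between genes per kb, at the strongest region that the table lists as transcript start. Arnt was the most open, at 1364 ± 231 signal per kb in vehicle (SD, n = 4), and by the mean of all 8 libraries it stood at the 95.05th percentile of the 20237 genes with such a region. Epas1 at 1115 ± 217 and Hif1a at 1085 ± 196 followed. Vegfa stood at 852 ± 136, Egln1 at 808 ± 454 and Vhl at 666 ± 67.0. The Egln1 value came from a region of 75 bp, against 109 to 718 bp for the other genes, with as few as 4 reads in a library. A lower set held Egln3 at 354 ± 92.6, Vegfb at 272 ± 84.6 and Hif3a at 248 ± 52.6, at the 46.8th to 56.0th percentiles by the same mean. The Hif3a region lay at an internal start, 11.3 kb downstream of the most upstream listed start of the gene. Neighbours in this order overlapped in their vehicle values, except that every Vhl library (lowest 578) lay above every Egln3 library (highest 454). The iMSBmal1KO libraries gave means from 222 for Hif3a to 1438 for Arnt.

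**Figure D1:**
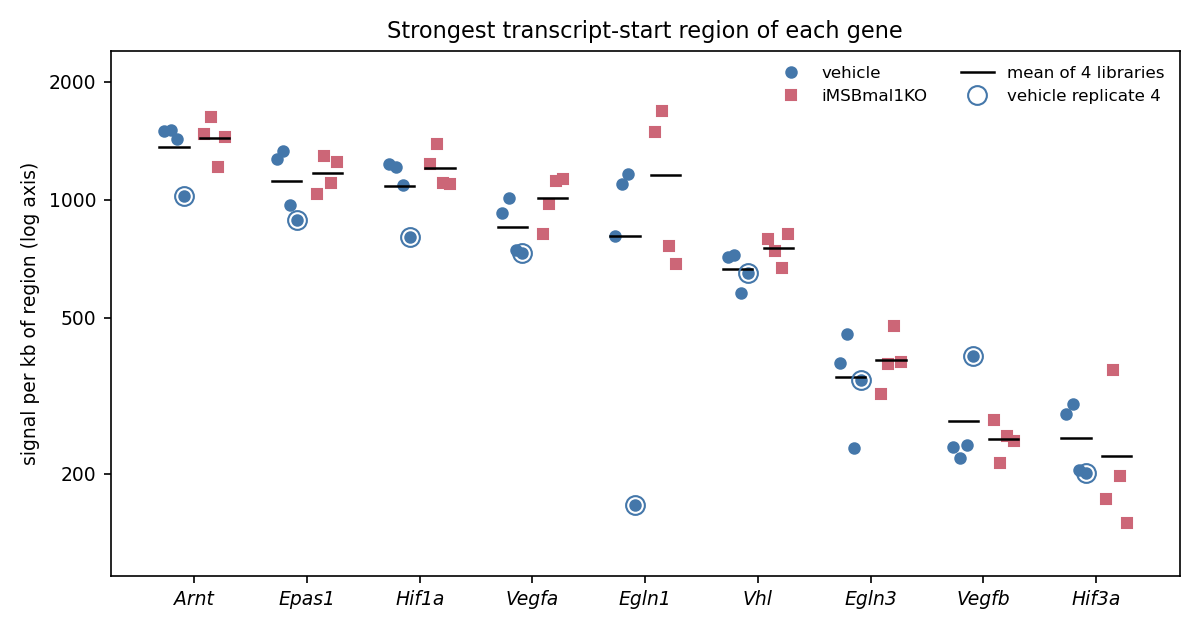
Signal per kb (log axis) of the strongest transcript-start region of each gene, 1 point per library, with vehicle as circles, iMSBmal1KO as squares, the line as the mean of 4 and an open ring around vehicle replicate 4. The means of Arnt, Epas1 and Hif1a lie between 1085 and 1438, and those of Egln3, Vegfb and Hif3a between 222 and 391. The groups overlap at each gene.

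The genes also differed in where their signal lay. For Hif1a 91.4% of the summed signal was in start regions, for Arnt 81.3% and for Vegfb 77.0%, while all Vhl regions were start regions. Hif3a and Egln1 were the opposite, with 9.30% and 12.7% in start regions and 51.9% and 74.2% in introns. The Hif3a start regions all lay 11.1 to 11.4 kb downstream of its most upstream listed start. Epas1 (39.3% in start regions, 55.1% in introns) and Vegfa (38.5% and 60.5%) were in between.

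Of the alpha subunits, Hif1a, the ubiquitous one, had a summed signal over its 12 regions of 957, 949, 848 and 635 in vehicle and 976, 1070, 890 and 896 in iMSBmal1KO, given here and below in the order of their replicate numbers. The groups overlapped, and the log2 change was 0.19 (with SE 0.16 and limma adjusted p = 0.661), with a 95% interval of 0.909 to 1.43 as a fold. Most of this signal was the start region that holds the E-box, chromosome 12, 73907536 to 73908253. It held 886, 868, 783 and 578 in vehicle and 887, 994, 794 and 789 in iMSBmal1KO, a log2 change of 0.17 (with SE 0.18 and limma adjusted p = 0.767). Vehicle replicate 4 was the low value there, and without it the change was 0.03. All 4 tested Hif1a regions had a positive estimate, up to 0.59 at coding exon 15, chromosome 12, 73945626 to 73945821 (limma adjusted p = 0.697), where a library held as few as 1 read and the change without vehicle replicate 4 was 0.20. Summed as 1 unit, the 6 regions in 5' UTR exons of Hif1a held 44.8, 49.3, 45.1 and 43.8 in vehicle and 56.5, 57.7, 56.1 and 72.8 in iMSBmal1KO. These groups did not overlap, and the log2 change was 0.39 (with SE 0.21 and limma adjusted p = 0.540).

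Epas1, the alpha subunit known from endothelium and oxidative tissue, had the most regions, 66, and the highest sums. They were 2112, 2060, 1906 and 1695 in vehicle and 1688, 2000, 1748 and 2121 in iMSBmal1KO. The 2 groups covered almost the same range, with a log2 change of -0.04 (with SE 0.14 and limma adjusted p = 0.928) and an interval of 0.796 to 1.19 as a fold. Its start region, chromosome 17, 86753211 to 86753849, held 810, 851, 621 and 569 in vehicle and 662, 825, 707 and 797 in iMSBmal1KO (log2 change 0.08, limma adjusted p = 0.895, and -0.02 without vehicle replicate 4).

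The regions of Epas1 did not share a direction, with 10 positive and 16 negative estimates among 26. The lower estimate with the smallest p lay in the first intron, chromosome 17, 86755913 to 86756037. It held 66.1, 48.8, 54.7 and 31.3 in vehicle and 30.4, 22.6, 24.4 and 38.9 in iMSBmal1KO. All iMSBmal1KO libraries but replicate 4 lay below all vehicle values, and the change of -0.75 ± 0.29 (log2, SE) had a limma adjusted p = 0.494. The higher estimate with the smallest p, also in the first intron, chromosome 17, 86784267 to 86784467, was 0.69 (limma adjusted p = 0.576). A region of intron 6, chromosome 17, 86816127 to 86816392, chosen after its values were seen, held 13.9, 12.3, 13.3 and 15.6 in vehicle and 5.56, 7.53, 11.9 and 10.0 in iMSBmal1KO. Its groups did not overlap, and its change of -0.64 had a limma adjusted p = 0.594. The largest estimate of all 97 regions, 1.57 in a 5' UTR exon of Epas1, chromosome 17, 86753970 to 86754074, was also picked after its values were seen. It held 18.1, 21.6, 32.4 and 0 in vehicle and 33.8, 33.5, 23.9 and 36.4 in iMSBmal1KO, with overlap and a 0 in vehicle replicate 4 (limma adjusted p = 0.651).

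Hif3a encodes an alpha subunit whose short forms restrain the others. Its sums were 407, 413, 502 and 394 in vehicle and 300.0, 413, 363 and 335 in iMSBmal1KO, and the vehicle libraries were mostly the higher ones, with overlap through iMSBmal1KO replicate 2. The change was -0.29 ± 0.16 (log2, SE, limma adjusted p = 0.558), an interval of 0.653 to 1.03 as a fold. The strongest region lay in the first intron, chromosome 7, 17060135 to 17060361, 2066 bp from the listed start. It held 178, 192, 235 and 178 in vehicle and 118, 209, 168 and 146 in iMSBmal1KO (log2 change -0.31, limma adjusted p = 0.644). The tested start region, chromosome 7, 17051116 to 17051224, gave -0.21 (limma adjusted p = 0.836). It belongs to an internal start, 11.3 kb downstream of the most upstream listed start. All 3 tested Hif3a regions had negative estimates.

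Arnt, the beta subunit, had sums of 973, 1011, 956 and 716 in vehicle and 982, 1063, 830 and 966 in iMSBmal1KO. The change was 0.08 ± 0.15 (log2, SE, limma adjusted p = 0.863), and it turned to -0.03 without vehicle replicate 4. Its start region, chromosome 3, 95434231 to 95434772, held 812, 816, 776 and 553 in vehicle and 797, 881, 657 and 783 in iMSBmal1KO, with the same behaviour (0.09, limma adjusted p = 0.892, and -0.05 without vehicle replicate 4). The negative estimate with the smallest p was -0.37 in the first intron, chromosome 3, 95439815 to 95439941 (limma adjusted p = 0.739). It was -0.22 without vehicle replicate 4. The positive estimate with the smallest p was 0.26 at a listed transcript end, chromosome 3, 95494519 to 95494684 (limma adjusted p = 0.828). This end is that of a transcript listed as retained intron.

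Egln1 is the main oxygen-sensing hydroxylase. Its sums over 43 regions were 1337, 1266, 1297 and 982 in vehicle and 1298, 1536, 1348 and 1706 in iMSBmal1KO. The iMSBmal1KO values were the higher ones apart from replicate 1, and the change of 0.27 ± 0.15 (log2, SE) had a limma adjusted p = 0.558 and an interval of 0.973 to 1.50 as a fold. It was 0.17 without vehicle replicate 4. The strongest region lay in the first intron, 24.9 kb from the most upstream start, at chromosome 8, 124924186 to 124924721. It held 441, 352, 335 and 260 in vehicle and 339, 495, 434 and 611 in iMSBmal1KO (log2 change 0.43 ± 0.22, SE, limma adjusted p = 0.553).

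A second first-intron region of Egln1, chromosome 8, 124937391 to 124937770, had the smallest p of the gene. It held 178, 181, 165 and 100.1 in vehicle and 178, 202, 246 and 246 in iMSBmal1KO, a change of 0.50 ± 0.23 (log2, SE, limma adjusted p = 0.530). The groups overlapped only through iMSBmal1KO replicate 1, which lay at the level of vehicle replicates 1 and 2, and the change was 0.30 without vehicle replicate 4. A further region of this intron, chromosome 8, 124926883 to 124927020, chosen after its values were seen, held 27.7, 22.6, 22.2 and 28.1 in vehicle and 32.1, 33.5, 34.6 and 35.1 in iMSBmal1KO, without overlap (0.42, limma adjusted p = 0.615). The negative estimate with the smallest p was -0.34, chromosome 8, 124922836 to 124922925 (limma adjusted p = 0.732). At the tested region nearest a listed start, chromosome 8, 124949389 to 124949463, the values were 60.8, 82.2, 87.1 and 12.5 in vehicle and 112, 126, 57.3 and 51.4 in iMSBmal1KO. The estimate was 0.71 (limma adjusted p = 0.713), and 0.08 without the low vehicle replicate 4. Another tested start region, chromosome 8, 124949502 to 124949690, gave 0.14 (limma adjusted p = 0.846) on at least 22 reads a library. The 4 start regions summed gave 0.29 (limma adjusted p = 0.631). The Egln1 promoter window had the most CpG of the members, 60 in 300 bases.

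Egln3, a hydroxylase that hypoxia itself induces in many cells, had sums of 473, 530, 352 and 400.2 in vehicle and 452, 458, 571 and 453 in iMSBmal1KO. The groups overlapped (0.15 ± 0.16, log2, SE, limma adjusted p = 0.743). Its start region, chromosome 12, 54203341 to 54203953, gave 0.17 (limma adjusted p = 0.809), and a first-intron region, chromosome 12, 54187807 to 54188032, gave -0.22 (limma adjusted p = 0.841). Vhl, the recognition subunit of the ubiquitin ligase, had sums of 312, 317, 268 and 285 in vehicle and 351, 330, 291 and 354 in iMSBmal1KO. These differed by 0.16 ± 0.15 (log2, SE, limma adjusted p = 0.692). Its single tested region, at the start, chromosome 6, 113623993 to 113624415, held 303, 305, 245 and 275 in vehicle and 336, 313, 283 and 346 in iMSBmal1KO (0.18, limma adjusted p = 0.754), and only iMSBmal1KO replicate 3 fell within the vehicle range.

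Vegfa had the smallest p of the 9 sums. They were 1489, 1596, 1424 and 1088 in vehicle and 1634, 1592, 1654 and 1887 in iMSBmal1KO, so the groups overlapped by a single vehicle library, replicate 2, against iMSBmal1KO replicate 2. The vehicle mean was 1399 ± 219 and the iMSBmal1KO mean 1692 ± 132 (SD, n = 4 each). The log2 change was 0.29 (with SE 0.15 and limma adjusted p = 0.542) and an interval of 0.985 to 1.51 as a fold. Without vehicle replicate 4 the change was 0.17. Of 25 tested regions 19 had positive estimates, with a median of 0.28. The start region, chromosome 17, 46032436 to 46032991, held 514, 561, 414 and 406 in vehicle and 456, 543, 621 and 630 in iMSBmal1KO (0.25, limma adjusted p = 0.666).

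Within the introns of Vegfa, the higher estimate with the smallest p was in intron 5, chromosome 17, 46023222 to 46023301. It held 6.40, 7.19, 11.4 and 6.25 in vehicle and 14.98, 15.9, 11.9 and 17.6 in iMSBmal1KO, without overlap, a change of 0.89 ± 0.38 (log2, SE, limma adjusted p = 0.511). It rests on 2 to 35 reads a library. A pair of further Vegfa regions, chosen after their values were seen, also did not overlap. One in intron 2, chromosome 17, 46027738 to 46027914, held 94.9, 111, 106 and 81.3 in vehicle and 130, 119, 147 and 127 in iMSBmal1KO (0.41, limma adjusted p = 0.559). The other in the first intron, chromosome 17, 46030184 to 46030253, gave 0.54 (limma adjusted p = 0.562). In the opposite direction, a region in the 3' UTR exon, chromosome 17, 46018005 to 46018122, held 19.2, 15.4, 21.0 and 25.01 in vehicle and 10.3, 7.53, 11.9 and 16.3 in iMSBmal1KO (-0.78 ± 0.34, log2, SE, limma adjusted p = 0.517). The tested region nearest a listed start, chromosome 17, 46031313 to 46031412, gave 0.88 (limma adjusted p = 0.581) on as few as 1 read, and 0.45 without vehicle replicate 4. That start is internal, and the centre of the region lies 1.01 kb downstream of the most upstream listed start. Summed over introns after the first, Vegfa held 177, 200.4, 201 and 166 in vehicle and 220, 217, 246 and 240 in iMSBmal1KO, again without overlap (0.31 ± 0.17, log2, SE, limma adjusted p = 0.544).

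Vegfb had the lowest sums, 143, 143, 156 and 134 in vehicle and 146, 147, 123 and 135 in iMSBmal1KO, a change of -0.06 ± 0.16 (log2, SE, limma adjusted p = 0.903). The smallest p of all member regions was at a listed transcript end, chromosome 19, 6986261 to 6986348. This is the end of a transcript listed as retained intron. The centre of the region lies only 0.84 kb downstream of the most upstream listed start. The region held 13.9, 11.3, 19.7 and 21.9 in vehicle and 9.42, 9.58, 4.77 and 7.53 in iMSBmal1KO, without overlap. Its change was -0.999 ± 0.39 (log2, SE, limma adjusted p = 0.493) on 4 to 31 reads a library. The abutting region, 6986349 to 6986494, went the other way with 1.29 (limma adjusted p = 0.575), with a 0 in vehicle replicate 4 and a change of 0.38 without that library. The 3 transcript-end regions together gave 0.09 (limma adjusted p = 0.915). The start region, chromosome 19, 6987158 to 6987353, is also listed under a retained-intron transcript. It gave -0.11 (limma adjusted p = 0.903), and 0.08 without vehicle replicate 4.

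**Figure D2:**
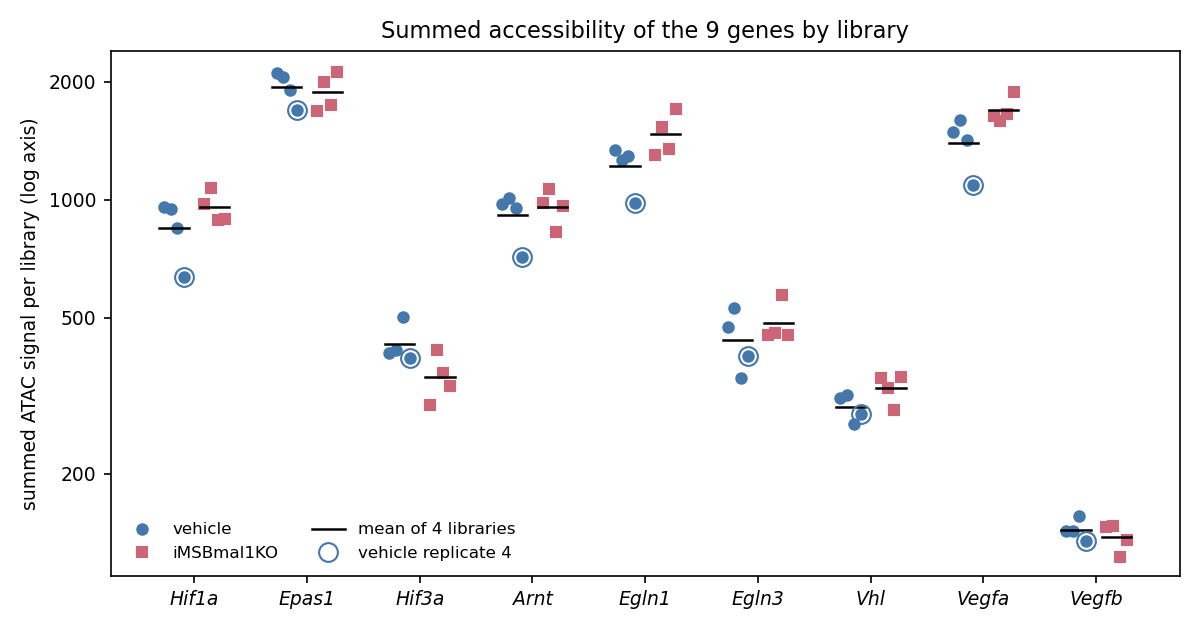
Summed ATAC signal (log axis) of all regions of each gene, 1 point per library, vehicle as circles and iMSBmal1KO as squares, the line as the mean of 4 and an open ring around vehicle replicate 4. The ringed library is the lowest of its group for 7 of the 9 genes, and the groups overlap at every gene.

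**Figure D3:**
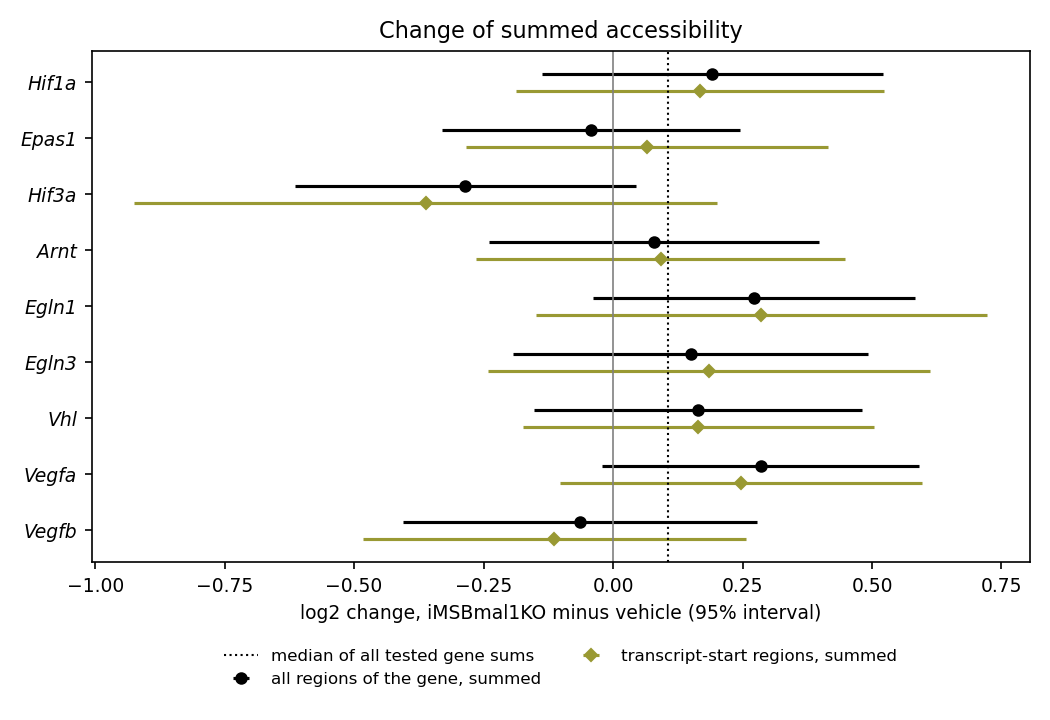
Log2 change of the summed signal (iMSBmal1KO minus vehicle) with its 95% interval for each gene with all 8 libraries, over all regions (black circles) and over transcript-start regions (diamonds), with a dotted line at the median of all gene sums. Every interval drawn includes 0, and the estimates over all regions run from -0.29 for Hif3a to 0.29 for Vegfa.

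The estimates of the sums have to be read against a general shift. Over all 22224 tested genes the median log2 change was 0.11, and median-of-ratios scaling moved it to -0.01. Relative to the median as deposited, Vegfa stood at 0.18, Egln1 at 0.17, Hif1a at 0.09, Vhl at 0.06, Egln3 at 0.04, Arnt at -0.03, Epas1 at -0.15, Vegfb at -0.17 and Hif3a at -0.39. Without vehicle replicate 4 the median over all genes was 0.05, and the changes themselves were 0.06 for Hif1a, -0.11 for Epas1, -0.32 for Hif3a, 0.11 for Egln3, 0.15 for Vhl and -0.10 for Vegfb, beside those given above for Arnt, Egln1 and Vegfa. Of the 9 sums 6 had a positive estimate, where 66.6% of all genes did. None had an unadjusted p under 0.05, against 9.48% of all genes, and none had groups that did not overlap, against 4.94%. Without vehicle replicate 4, Hif3a alone of the 9 had an unadjusted limma p under 0.05 (0.0446, adjusted p = 0.729), against 1473 of 21885 genes. With median-of-ratios, trimmed-mean and loess scaling the Hif3a change was -0.40, -0.40 and -0.46 (limma adjusted p = 0.353, 0.363 and 0.264). Under these, 1, 1 and 2 of the 9 sums had an unadjusted p under 0.05, against 2203, 2182 and 2350 of all 22224 genes. Without vehicle replicate 2 it was 1 of the 9, against 3975 of 21955 genes.

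Over single regions the members resembled the table as a whole. Positive estimates made up 61.9% of the 97 tested regions and 62.0% of all tested regions, and the medians were 0.13 and 0.12. An unadjusted p under 0.05 was found in 5 of the 97, or 5.15%, against 9.22% of all regions. With median-of-ratios, trimmed-mean and loess scaling it was 8 of the 97 each time, against 12192, 12146 and 12711 of all 124901 regions. The groups did not overlap in 6 of the 97, or 6.19%, against 5.48%, with 4 higher (3.62% of all regions) and 2 lower (1.87%). The median 95% interval of a member region reached 0.72 to either side on the log2 scale, before adjustment over all regions. Larger changes could also fail the adjusted threshold, as -0.999 at Vegfb and 0.89 at Vegfa did (limma adjusted p = 0.493 and 0.511). The other 117 member regions were too weak to test.

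By section of the gene, the 17 start regions had a median change of 0.14 against 0.17 over all start regions, and the 44 first-intron regions 0.08 against 0.08. The 17 regions of later introns gave 0.06 against 0.11. Exon and end regions were few, with 6 coding, 4 5' UTR, 4 3' UTR and 5 transcript-end regions, and their medians were 0.18, 0.23, 0.25 and 0.26 against 0.06, 0.08, 0.10 and 0.06. When the signal was summed by gene and section, 31 of 39 units could be tested and none was called, where 0.123% of all units were. The Vegfa 3' UTR exon, a single region, was the only unit with an unadjusted p under 0.05, against 9.71% of all units. The groups did not overlap in 2 of the 31, the Hif1a 5' UTR exons and the later Vegfa introns described above, or 6.45% against 5.13% of all units.

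**Figure D4:**
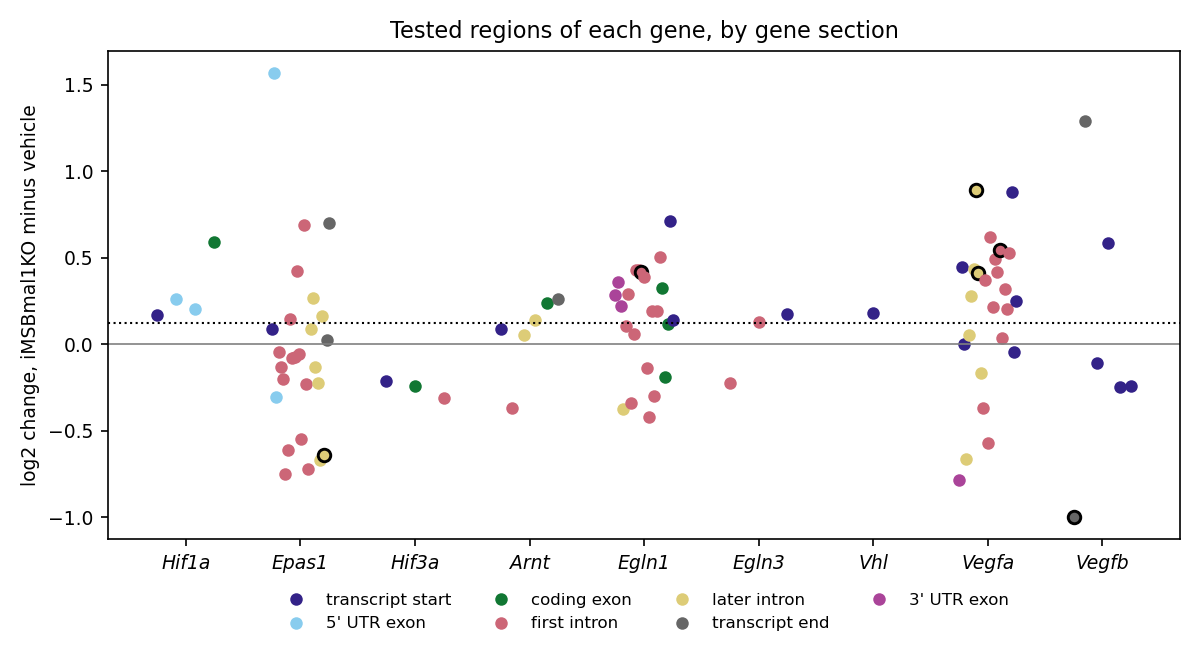
Log2 change (iMSBmal1KO minus vehicle) of each tested region by gene, coloured by gene section, with a black ring where the groups do not overlap and a dotted line at the median of all tested regions. Vegfa has 3 ringed points above 0, Egln1 has 1, and Epas1 and Vegfb have 1 each below 0. All 3 Hif3a points lie below 0.

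**Figure D5:**
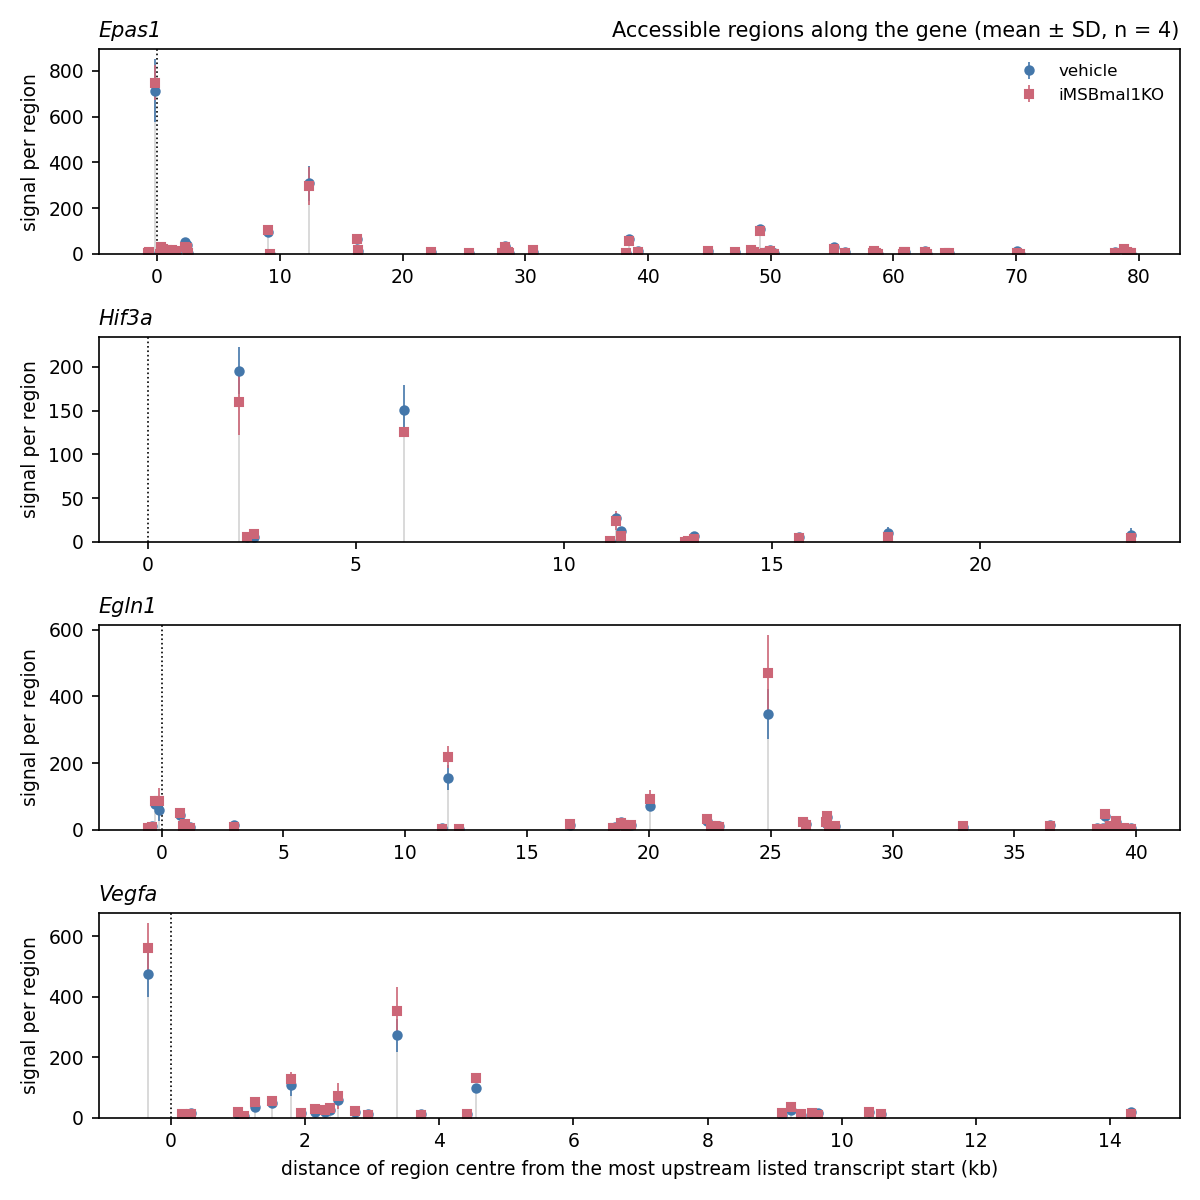
Mean signal ± SD (n = 4) of the regions of Epas1, Hif3a, Egln1 and Vegfa by distance in kb from the most upstream listed start, vehicle and iMSBmal1KO. Egln1 and Hif3a have their strongest regions in the first intron, while Epas1 and Vegfa peak at the start.

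The other genes of the pathway gave little more. Of 16 further genes of oxygen sensing, among them Hif1an, Egln2, the Cul2 ligase and its Elob and Eloc adaptors, none passed the threshold in either direction, with a median change of 0.13 and a range of -0.07 to 0.42. The top of that range was Eloc, with a vehicle sum of 612 ± 194 and an iMSBmal1KO sum of 789 ± 92.5 (SD, n = 4 each, limma adjusted p = 0.520). Eloc alone of the 16 had an unadjusted p under 0.05, against 9.48% of all tested genes. Of the 32 tested genes that HIF is known to induce, none passed, with a median of 0.05. They ran from -0.27 for Epo, the red cell hormone, to 0.30 for Pkm, a glycolytic enzyme (limma adjusted p = 0.599 and 0.552). None of the 93 and 271 tested regions of these 2 lists passed.

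Among 12 other VEGF ligands, receptors and angiopoietins, none passed and the median was 0.05. Flt4, the lymphatic VEGF receptor, had the lowest estimate at -0.64 ± 0.19 (log2, SE), with a vehicle sum of 178 ± 23.1 and an iMSBmal1KO sum of 115 ± 24.0 (SD, n = 4 each). Its limma adjusted p was 0.376. Flt4 alone of the 12 had groups that did not overlap, against 4.94% of all tested genes. Flt1, a VEGF receptor of blood vessels, stood at 0.31 (limma adjusted p = 0.651). None of the 64 tested regions of this list passed.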

How the data were processed

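The authors deposited 1 table of regions with a signal per library and gene annotation. Per the submitters' processing notes, Partek, Bowtie2, MACS2 and DESeq2 were used and the builds mm10 and GRCm39 are named, with no role for either. How duplicates were treated and whether reads were shifted for the transposase are not given in the sources used here, and both could change the values. Between 98.3% and 99.8% of the values above 0 in a library were multiples of 1 step within 0.02 reads, so the deposited signal was treated as scaled reads, with 1 scale for each library, and read equivalents are the signal over this step. Some values were not whole, so no count test was run. Region ends are printed as the last base, counted from 1. All 9 genes overlapped their RefSeq genes of GRCm38.p6, the build of the promoter windows.

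Signal was tested with limma-trend (limma 3.58.1, R 4.3.3) with robust empirical Bayes on log2(signal + 1), a single group term and the 8 libraries. The log2 changes are on this scale, which understates changes of weak regions. Tested were features with at least 0.762 read equivalents per M in 4 libraries and 15 reads in all, namely 124901 regions, 22224 gene sums and 43818 sums by gene and section. P-values were adjusted by Benjamini-Hochberg over each table, with a threshold of 0.05. Read-level intervals were not used, because PCR copies cannot be told from separate molecules. The fit was tested on simulated data. The simulation gave every library the same spread beyond counting and placed changes only in features of at least median signal. It therefore does not bear on weak regions or on a library that stands apart.

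The genes and lists were chosen with earlier results of these data known. Named regions of a gene were the one with the smallest p in each direction, the strongest and the one nearest a listed start. For each gene the single gene most alike over the libraries was also named. Python 3.11.15 with pandas 2.3.3 made the tables, and matplotlib 3.10.9 the figures. Alternatives were other scalings, pseudocounts, filters, limma-voom, a threshold of 0.01, autosomes alone, the replicate number as a block and leaving out each library.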

Additional observations from a re-analysis of the deposited data

Results flagged for a closer look

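In 5 of 66 group values, 1 library lay farther from the others than Dixon's 95% limit, and chance gives about 3.3. Gaps are given as a share of the range of the group. In the summed signal of Egln3, iMSBmal1KO replicate 3 held 571 against 452 to 458, a gap of 0.951 of the range. At the Arnt start region, vehicle replicate 4 held 553 against 776 to 816 (0.848). At the Arnt transcript-end region, vehicle replicate 2 held 11.3 against 9.38 to 9.59 (0.889). At the Vegfa region nearest a listed start, iMSBmal1KO replicate 2 held 30.9 against 12.5 to 15.5 (0.839). At the Vegfb start region, vehicle replicate 4 held 78.2 against 43.2 to 46.4 (0.908).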

How the results depend on the processing

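No member region, sum or unit passed the threshold in any of the 20 alternative settings, with smallest limma adjusted p of 0.206, 0.260 and 0.235, and limma-voom called none of the members either. The counts over all features moved more. The 110 regions (39 higher, 71 lower) became 36 at a threshold of 0.01, 279 with median-of-ratios factors, 275 with trimmed-mean factors, 336 with loess (91 higher, 245 lower), 195 with no filter, 342 with limma-voom, and 30 to 256 with 1 library left out. These were 30 and 32 without vehicle replicates 1 and 3, 256 without vehicle replicate 4, and 38, 39 and 56 without iMSBmal1KO replicates 2, 3 and 4. Without vehicle replicate 2 the balance of direction turned for regions, with 79 of 130 higher. Of the genes, 85 of 108 were then higher, against 16 of 29 as reported. The 29 genes (16 higher, 13 lower) became 7, 48 (16 higher), 44 (14 higher) and 67 (25 higher) under the first 4 of these, and 7 (without iMSBmal1KO replicate 2) to 108 (without vehicle replicate 2) with 1 library left out. The 54 units became 21, 84, 83 and 108 under the first 4, 85 with limma-voom, and 21 (without vehicle replicate 1 or 3) to 144 (without vehicle replicate 2) with 1 library left out. With no filter the regions split 89 higher and 106 lower.

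Signs turned for small changes, and the cause was not tested. With median-of-ratios, trimmed-mean and loess scaling the Arnt sum was -0.034, -0.033 and -0.037, the Arnt start region -0.032, -0.029 and -0.024 and the Epas1 start region -0.033, -0.031 and -0.027. With loess the sums of Egln3 and Vhl were -0.017 and -0.0086. With 1 library left out, the Arnt sum ran from -0.035 to 0.15, the Epas1 sum from -0.11 to 0.010, the Arnt start region from -0.047 to 0.17, the Epas1 start region from -0.017 to 0.18, the Egln3 start region from -0.016 to 0.30 and the Vegfb start region from -0.20 to 0.085. The Arnt sum and the Arnt, Epas1 and Vegfb start regions turned without vehicle replicate 4, the Egln3 start region without vehicle replicate 3 and the Epas1 sum without iMSBmal1KO replicate 1. The Hif3a, Egln1, Hif1a, Vegfa and Vegfb sums kept their sign in all 20. The Vegfb transcript-end region with the smallest p and the Hif1a coding-exon region passed the filter in only 4 of the 8 fits with 1 library left out.

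The labels do not say whether the replicate number pairs the samples. Same-numbered libraries correlated in their deviations at -0.06, 0.14, 0.02 and 0.02, and 0 of 4 vehicle libraries matched its own number best. So few libraries cannot settle the question. With the replicate number as a block, 100 regions, 116 genes and 117 units passed, against 110, 29 and 54 without it, none of them a member. The planned edgeR and DESeq2 fits were not run, because whole reads could not be recovered for all values.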

Other observations

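For each of the 9 genes, the gene whose summed signal was most alike over the 8 libraries was found among 22224 genes, by Pearson's r of log2(sum + 1). The libraries share their depth and their quality, so these values are descriptions. The genes were Ppp3r1 for Hif1a (0.997), A430035B10Rik for Arnt (0.991), 9630013D21Rik for Egln1 (0.986), Ndufa2 for Vegfa (0.985), Sh3rf2 for Epas1 (0.983), Actr3b for Hif3a (0.980), Gm47849 for Vhl (0.974), Crtc1 for Vegfb (0.968) and Tmem44 for Egln3 (0.956).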
